A study of Mus musculus with 11 samples.

Results

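The T helper 1 (Th1) genes described here are Tbx21, Ifng, Stat4, Il12rb1, Il12rb2, Il18r1, Il18rap, Cxcr3, Eomes and Hopx. Their chromatin was followed in an ATAC-seq table, in which a transposase cuts and tags open DNA and the reads gathered at a site measure how accessible it is. Of 38509 peaks, 65 had their centre nearer to a RefSeq start site (NM or NR transcript) of one of these 10 genes than to that of any other gene. The choice used position alone and no measured value. Tbx21 and Ifng had 11 peaks each, Stat4 had 10, Hopx 9, Il12rb1 7, Il12rb2 6, Il18r1 5, Cxcr3 3, Eomes 2 and Il18rap 1.

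The 11 libraries came from CD4 T cells of wildtype C57BL/6 Foxp3-GFP mice with a polyclonal repertoire, from mixed spleen and lymph node, sorted fresh and untreated. The naive group was sorted as CD44low (2 libraries), and the effector group, Teff, as CD44high, FOXP3-, CD73low and FR4low (3 libraries). The anergic group was CD44high, FOXP3-, CD73high, FR4high and NRP1+ (3 libraries), and the regulatory group, Treg, was FOXP3+ and CD25+ (3 libraries). Ages are not given in the sources used here, nor whether libraries of a group came from different animals, so the tests measure the spread between these libraries, which may be technical.

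Th1 cells are the CD4 T cells that make interferon gamma, the cytokine encoded by Ifng. T-bet, the T-box factor encoded by Tbx21, drives the fate, and interleukin-12 acts through the receptor chains of Il12rb1 and Il12rb2 to activate the factor encoded by Stat4. The chains of Il18r1 and Il18rap form the interleukin-18 receptor, Cxcr3 encodes a chemokine receptor that takes Th1 cells to inflamed tissue, Eomes encodes a T-box factor related to T-bet, and Hopx encodes a small homeodomain protein known from Th1 effector memory cells and from regulatory T cells. Anergic CD4 T cells have met antigen and respond poorly to it on a later encounter. Accessibility is not expression, and no RNA values were used.

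Of the 65 peaks, 26 lay in introns, 31 between genes, 6 in 5′ untranslated regions and 2 in coding exons. Their centres were within 1000 bases of a start site for 12 peaks, or 18.5%, against 33.2% of all peaks. The median width was 421 bases, against 369 over all peaks.

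The sequences below are 200-base windows, from the reference genome GRCm38 on the plus strand, of 8 peaks on which the results turn. They comprise Tbx21 peaks with opposite orders of Teff and anergic signal, the Ifng promoter and an upstream Ifng peak, and the Stat4, Il18rap and Cxcr3 peaks with wide differences between subsets. Capitals mark matches on either strand to the letters GGTGTGA (a T-box word), TTCNNNGAA (STAT), TGANTCA (AP-1), TGTGGTT (RUNX) and CCGGAAGT (ETS), and each window was placed in its peak to hold as many matches as it could, that of Ifng ending before the start site.
Tbx21, 15.4 kb upstream, chr11:97130866-97131065: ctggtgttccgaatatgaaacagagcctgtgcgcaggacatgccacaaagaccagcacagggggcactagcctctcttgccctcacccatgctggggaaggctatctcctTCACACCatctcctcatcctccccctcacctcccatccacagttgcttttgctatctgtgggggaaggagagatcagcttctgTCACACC
Tbx21, 8.34 kb upstream, chr11:97123570-97123769: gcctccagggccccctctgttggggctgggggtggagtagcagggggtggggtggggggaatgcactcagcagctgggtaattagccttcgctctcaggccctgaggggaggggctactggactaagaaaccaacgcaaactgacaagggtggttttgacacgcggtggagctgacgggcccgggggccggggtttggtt
Tbx21, intron, 6.12 kb downstream, chr11:97109110-97109309: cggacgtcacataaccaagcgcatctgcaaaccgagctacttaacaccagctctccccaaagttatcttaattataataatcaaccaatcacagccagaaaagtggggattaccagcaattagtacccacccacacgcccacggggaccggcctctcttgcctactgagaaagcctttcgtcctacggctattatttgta
Ifng, promoter peak, chr10:118440672-118440871: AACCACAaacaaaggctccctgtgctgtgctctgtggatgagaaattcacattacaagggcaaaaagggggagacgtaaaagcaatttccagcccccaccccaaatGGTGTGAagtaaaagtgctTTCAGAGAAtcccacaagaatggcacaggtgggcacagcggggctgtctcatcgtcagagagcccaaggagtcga
Ifng, 5.49 kb upstream, chr10:118435529-118435728: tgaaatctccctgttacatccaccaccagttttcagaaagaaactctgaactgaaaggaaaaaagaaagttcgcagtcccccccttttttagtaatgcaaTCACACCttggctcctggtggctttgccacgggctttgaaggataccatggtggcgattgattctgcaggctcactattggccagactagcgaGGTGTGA
Stat4, intron, 27.0 kb downstream, chr1:52035380-52035579: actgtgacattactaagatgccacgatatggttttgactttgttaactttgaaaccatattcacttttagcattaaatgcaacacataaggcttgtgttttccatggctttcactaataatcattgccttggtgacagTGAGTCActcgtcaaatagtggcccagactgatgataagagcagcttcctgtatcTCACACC
Il18rap, 13.6 kb upstream, chr1:40501616-40501815: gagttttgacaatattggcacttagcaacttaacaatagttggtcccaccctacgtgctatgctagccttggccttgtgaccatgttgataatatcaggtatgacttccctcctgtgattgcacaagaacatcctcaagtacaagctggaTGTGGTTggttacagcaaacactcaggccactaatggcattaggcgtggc
Cxcr3, 3.30 kb upstream, chrX:101737346-101737545: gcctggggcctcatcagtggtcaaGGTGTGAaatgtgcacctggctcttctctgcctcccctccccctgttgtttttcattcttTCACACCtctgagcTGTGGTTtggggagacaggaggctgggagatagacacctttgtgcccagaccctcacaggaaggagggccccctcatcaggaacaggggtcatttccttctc

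The T-box word occurred in 11 of the 65 peaks (16.9%), against 8.71% of the 38441 peaks on chromosomes. It occurred 2 times in the windows 15.4 kb upstream of Tbx21, 5.49 kb upstream of Ifng and 3.30 kb upstream of Cxcr3, and once in those of the Ifng promoter and the Stat4 intron. The RUNX word occurred in 20 peaks (30.8%, against 15.6%), the AP-1 word in 15 (23.1%, against 17%), the STAT word in 11 (16.9%, against 12.2%) and the ETS word in 1, at Eomes (1.54%, against 4.48%). Within the central 300 bases of each peak, where width matters less, the shares were 9.23% against 5.03% for the T-box word, 24.6% against 11.2% for RUNX, 13.8% against 11.8% for AP-1 and 9.23% against 7.7% for STAT. With peaks near a start site (18.5% of the Th1 peaks and 33.2% of all) left out, 53 and 25675 peaks remained. The ETS word then occurred in 1.89% against 1.5%, so its lower share was not seen there. STAT occurred in 13.2% against 10.5%, but in 7.55% against 8.82% within the central 300 bases. The shares of T-box and RUNX stayed higher in the Th1 peaks, over whole peaks and over the central bases (11.3% against 5.99% and 26.4% against 14.8% in the latter). That of AP-1 was 28.3% against 18.6% over whole peaks, but close over the central bases (17% against 15.3%). The words are short and a match is not a bound site. The windows 8.34 kb upstream and 6.12 kb downstream of the Tbx21 start hold none of these letter strings.

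The deposited value of a peak, called its signal here, is a whole number of reads times a factor for the library, under which 1 read was worth between 0.527 and 2.13. Reads in peaks ran from 14668425 to 68818591 per library, lowest in a Treg library and highest in an anergic one. Between 17 and 368 peaks per library held 1 read, the smallest value in the table. Cd4 (4 peaks) and Cd3e (7 peaks) carried signal in every group, and the Foxp3 peak had 1331 ± 244 in Treg (SD, n = 3), against a mean of at most 131 in the other groups. No peak was assigned to Cd8a, to 4 of 5 natural killer genes (Ncr1, Klrd1, Klra8, Klre1), to Ms4a1, Cd79a or Pax5 of the B cell list, or to Lyz2, Csf1r or Fcgr3 of the myeloid list. A bulk library does not tell a change in every cell from a change in the share of cells that carry an open site.

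The first question was how the Th1 genes differ between antigen-experienced subsets and naive cells. Most of their peaks were more open in each subset, with exceptions by gene. In Teff over naive, 47 of the 65 peaks were higher and 2 lower (limma, Benjamini-Hochberg adjusted p below 0.05 over all 38493 tested peaks), where 22.7% of all peaks were higher and 17.4% lower. In anergic over naive, 41 were higher and 12 lower, beside 25.3% and 25.1% of all peaks. In Treg over naive, 37 were higher and 7 lower, beside 22.3% and 23% of all peaks. The median log2 fold change over the 65 peaks was 1.51, 0.96 and 0.91 in these comparisons, against -0.03, -0.04 and -0.04 over all peaks. Of the 12 peaks lower in anergic cells, 5 belonged to Il12rb2, 2 each to Il18r1 and Eomes, and 1 each to Ifng, Il12rb1 and Hopx. Without naive replicate 1, 4 of the 65 were lower in anergic than in naive cells.

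The second question was how the subsets differ from each other. In anergic over Teff, 15 peaks were higher and 25 lower (all peaks 15.9% and 16.8%), and the median log2 fold change was -0.11. The higher peaks were at Stat4 (6 peaks, but 3 without Teff replicate 2), Ifng (4), Hopx (3) and Tbx21 (2), and the loss was spread over Il12rb2 (5), Tbx21 and Hopx (4 each), Il18r1 (3), Ifng, Stat4, Il12rb1 and Cxcr3 (2 each) and Il18rap (1). The lower count was 1 without Teff replicate 1, Teff replicate 2 or anergic replicate 3 at Stat4, without Teff replicate 1 or anergic replicate 3 at Il12rb1, and without Teff replicate 2 or anergic replicate 2 at Cxcr3. In Treg over Teff, 8 were higher and 36 lower (all peaks 14.4% and 18.2%), with 10 of the 11 Tbx21 peaks among the lower ones and a median of -0.55. In anergic over Treg, 25 were higher and 8 lower (all peaks 19.4% and 14.8%), with a median of 0.36 and 7 peaks each of Tbx21 and Stat4 among the higher ones. Scaling the libraries to equal total reads in peaks shifted the median of all peaks by more than 0.1 in the naive and anergic comparisons with Treg (from -0.04 to 0.12 in Treg over naive and from 0.04 to -0.09 in anergic over Treg). The share of all called peaks that were higher went from 49.1% to 65.2% in Treg over naive, from 44.2% to 57.3% in Treg over Teff and from 56.8% to 40.1% in anergic over Treg. With that scaling the higher and lower counts of the Th1 peaks were 40 and 5 in Treg over naive, 9 and 33 in Treg over Teff, and 21 and 11 in anergic over Treg. Peaks more than 1000 bases from a start site are called more often than others, and the Th1 peaks hold more of them. Among such distal peaks, 24.5% of the Th1 peaks were higher and 35.8% lower in anergic over Teff (all distal peaks 19.9% and 21.2%). The shares were 9.43% and 54.7% in Treg over Teff (18.6% and 18.6%), and 39.6% and 9.43% in anergic over Treg (18.8% and 18.6%). The comparisons share libraries, so their counts are not independent.

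**Figure D1:**
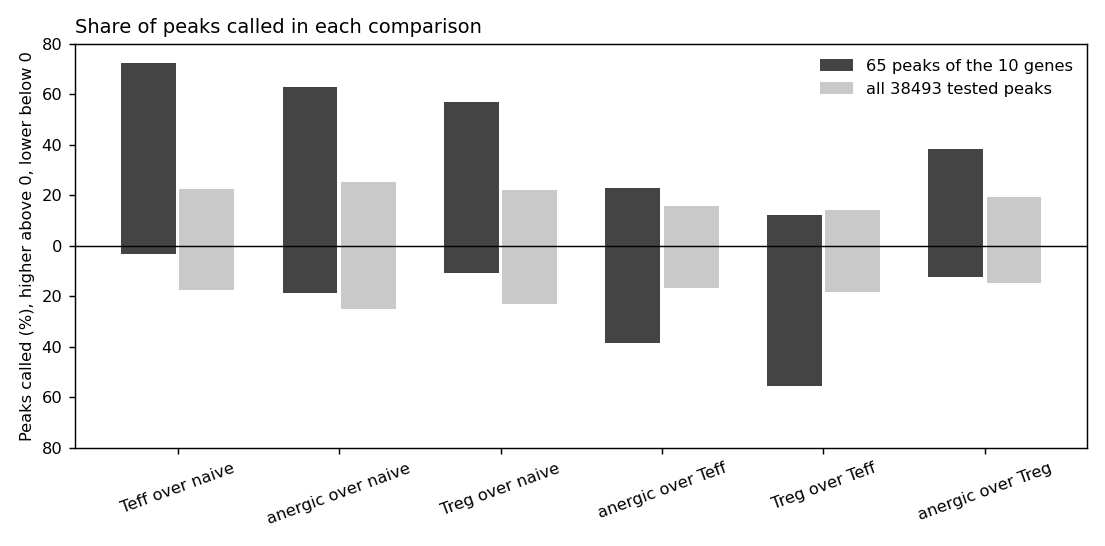
Bars give the percentage of peaks called higher (above 0) and lower (below 0) in each comparison, for the 65 peaks of the 10 Th1 genes (dark) and for all 38493 tested peaks (light). The higher share of the Th1 peaks exceeds that of all peaks in each comparison with naive cells, and in Treg over Teff their lower share is 55.4% against 18.2%.

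Peaks were also sorted by the group that stood apart in all of its 3 comparisons. Naive cells were below the other 3 groups at 33 of the 65 peaks (50.8%, against 14.7% of all peaks). Teff was above the other 3 groups at 15 (23.1%, against 4.35%), spread over 8 of the 10 genes. Anergic cells were above the others at 8 (12.3%, against 7.44%), of which 5 were Stat4 peaks, 2 Tbx21 peaks and 1 an Ifng peak. Without Teff replicate 2 that count was 5, of which 2 were Stat4 peaks, and without Teff replicate 3 or anergic replicate 3 it was 6, with 3 at Stat4. With equal total reads, or without Treg replicate 3 or anergic replicate 1, it was 6, with 4 at Stat4. Treg was above the others at 2 peaks, both of Hopx (3.08%, against 1.63%), with 1 such Th1 peak without Treg replicate 3 and 5 with equal total reads. No Th1 peak had naive cells above the other 3 groups, a pattern held by 8.99% of all peaks.

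Summed over all peaks of a gene and divided by their summed width, signal per 100 bases can be set side by side between genes. In Teff it lay between 54.1 at Eomes and 110 at Il12rb1. In naive cells it was 86.9 at Eomes and 79.1 at Il12rb1, but 24.6 at Tbx21, 4.57 at Cxcr3 and 1.46 at Il18rap. On the sums, 9 genes were higher and 1, Eomes, lower in Teff than in naive cells (15.7% and 18.5% of the 14241 genes with a peak). In anergic over naive, 6 were higher and 2, Il12rb2 and Eomes, lower (19.4% and 22.8% of genes), and Il12rb1 (0.21, adjusted p = 0.11) and Il18r1 (-0.13, adjusted p = 0.472) did not pass. In Treg over naive, 6 were higher and 1, Il12rb2 (-1.20 ± 0.18, adjusted p = 7.40e-06), lower (14.6% and 33.7% of genes). Of the higher ones, Ifng (0.28) was lost in Treg over naive without Treg replicate 3 or either naive replicate (adjusted p from 0.0577 to 0.118). In anergic over Teff, 1 gene (Stat4) was higher and 5 were lower (13.4% and 12.2% of genes), and in Treg over Teff 2 genes (Hopx and Eomes) were higher and 8 lower (10.7% and 23.2% of genes). Il12rb1, at -0.26 in anergic over Teff, no longer passed without any one of Teff replicates 1 and 2, anergic replicates 2 and 3 and naive replicates 1 and 2 (adjusted p from 0.0535 to 0.185). Its call in Treg over Teff (-0.32) was lost without Teff replicate 1 (-0.28, adjusted p = 0.0666) or 2 (-0.30, adjusted p = 0.0533) and with equal total reads (-0.22, adjusted p = 0.0784). Il18r1 no longer passed in Teff over naive without naive replicate 2 (log2 fold change 0.25, adjusted p = 0.265). Eomes no longer passed in Treg over Teff without Teff replicate 1 (0.36, adjusted p = 0.0895) or Treg replicate 2 (0.41, adjusted p = 0.0637).

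**Figure D2:**
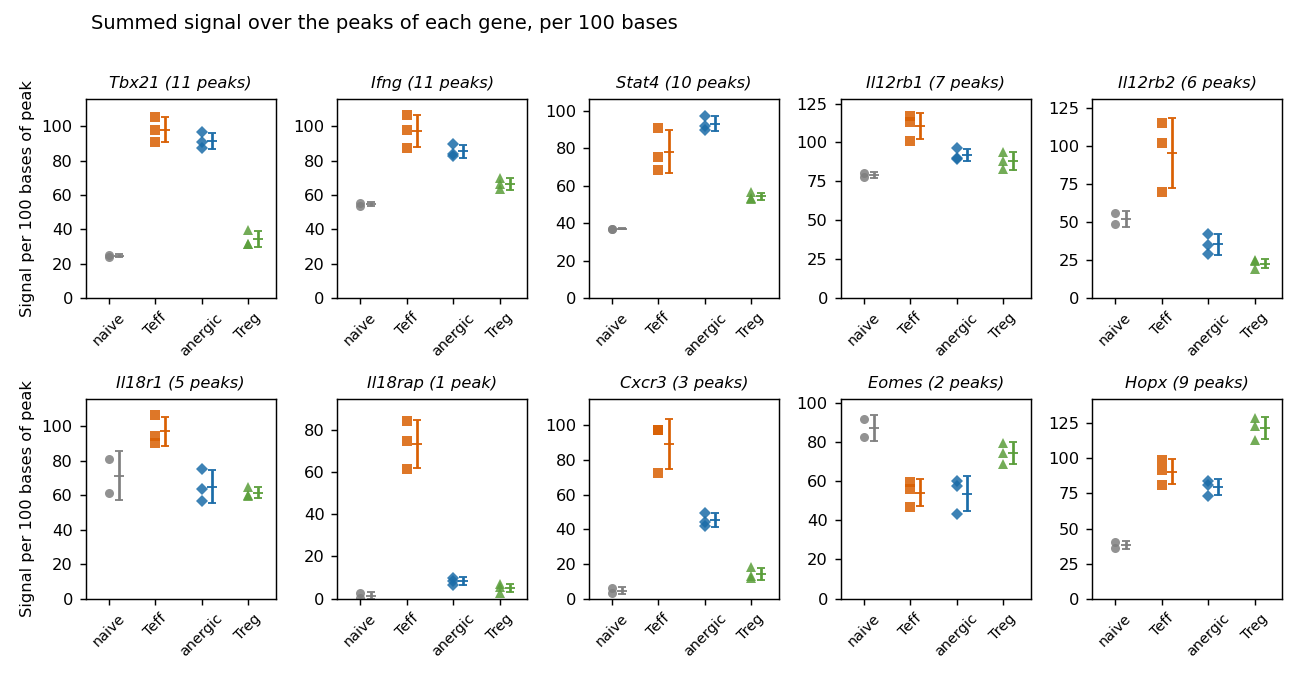
Each panel gives 1 gene on its own linear scale from 0, with its summed signal per 100 bases of peak on the vertical axis and the 4 groups along the horizontal axis. Points are libraries, and bars beside them are the mean ± SD (n = 2 for naive and 3 for the others). Tbx21 and Stat4 are high in Teff and anergic cells, Il12rb2, Il18rap and Cxcr3 are highest in Teff, and Hopx is highest in Treg.

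Tbx21, the gene of T-bet, kept nearly the same summed signal in anergic cells as in Teff while its peaks were reordered. The sum was 6248, 6733 and 5804 in the Teff libraries, 6158, 5792 and 5584 in the anergic ones, 2023, 2537 and 2018 in Treg, and 1530 and 1613 in naive cells. Teff and anergic libraries overlapped, and both lay above every Treg and naive library. The log2 fold change of anergic over Teff was -0.10 ± 0.09 (SE, adjusted p = 0.512), with a 95% interval from -0.29 to 0.10. Treg over Teff fell by 1.52 ± 0.09 on the log2 scale (adjusted p = 7.02e-12), and Treg over naive rose by 0.47 ± 0.11 (adjusted p = 7.20e-04). The order was therefore Teff and anergic, then Treg, then naive.

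Beneath that sum, 3 distal Tbx21 peaks were far lower in anergic cells than in Teff. At 8.34 kb upstream (chr11:97123386-97123955, intergenic) the Teff libraries had signals of 714, 570 and 482, the anergic ones 86.2, 87.5 and 68.5, Treg 117, 126 and 74.7, and naive 46.3 and 38.7. Teff stood alone at this peak, and anergic and Treg libraries overlapped. Anergic over Teff was -2.84 ± 0.24 (adjusted p = 1.22e-08), the smallest adjusted p of any Tbx21 peak in that comparison, while anergic over Treg was -0.36 ± 0.24 (adjusted p = 0.262). At 15.4 kb upstream (chr11:97130364-97131123), whose window carries 2 T-box words, the signals were 728, 971 and 663 in Teff, 192, 153 and 146 in anergic, 89, 185 and 55.7 in Treg, and 17.9 and 25.5 in naive cells. Relative to Teff, the anergic log2 change was -2.25 ± 0.31 there (adjusted p = 5.87e-06), and anergic cells still exceeded naive ones by 2.87 ± 0.34 (adjusted p = 3.07e-07). At 19 kb downstream of the start, beyond the gene's end, Teff had 406, 391 and 367 and anergic cells 113, 121 and 97.4. The difference was -1.81 ± 0.26 (adjusted p = 1.18e-05), and anergic cells did not pass against naive ones (65.8 and 109, adjusted p = 0.307).

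Other Tbx21 peaks were as open or more open in anergic cells. In an intron 6.12 kb downstream (chr11:97109022-97109398), the anergic libraries had 826, 521 and 716, the Teff ones 291, 343 and 308, Treg 70.9, 100 and 86.1, and naive cells 13.8 and 10.1. All anergic libraries exceeded all Teff libraries, by 1.11 ± 0.22 on the log2 scale (adjusted p = 4.78e-04). At 12 kb upstream, between both upstream peaks that were lower, anergic cells were also the highest, with 1946, 2147 and 1762 against 1354, 1403 and 1303 in Teff (0.52 ± 0.12, adjusted p = 0.00132). The intron peaks 2.51, 5.48 and 11.2 kb downstream did not pass between anergic cells and Teff, with log2 differences of 0.29 ± 0.21, 0.32 ± 0.55 and 0.04 ± 0.21. Each of these 3 was over 4 log2 units higher in both than in naive cells. At 5.48 kb the naive signals were 0.812 and 14.7, or 1 and 19 reads, so the size there depends on few reads. The peak 11.2 kb downstream had 933, 747 and 742 in anergic cells, 819, 870 and 675 in Teff, 84.5, 143 and 76 in Treg, and 17.9 and 20.1 in naive cells. Its difference between Teff and naive cells, 5.30 ± 0.24, had the smallest adjusted p of the Tbx21 peaks (3.50e-13).

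At the Tbx21 start, the peak centred 0.21 kb downstream (chr11:97114563-97115679, coding exon) had 881, 972 and 943 in Teff and 842, 772 and 908 in anergic cells, which overlapped (-0.15 ± 0.14, adjusted p = 0.472). Treg had 378, 449 and 344 and naive cells 240 and 309. Teff exceeded naive cells by 1.77 ± 0.16 (adjusted p = 1.19e-08), and Treg over Teff was -1.26 ± 0.14 (adjusted p = 7.90e-07). The narrow peak 0.66 kb upstream had 174, 168 and 153 in Teff and 58, 123 and 110 in anergic cells. That difference, -0.83 ± 0.31 (adjusted p = 0.043), was lost without any one of Teff replicates 1, 2 and 3 or anergic replicate 1 (adjusted p from 0.0623 to 0.24). The peak 13.4 kb downstream passed in none of the 6 comparisons, with signals from 119 to 231 over all 11 libraries.

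**Figure D3:**
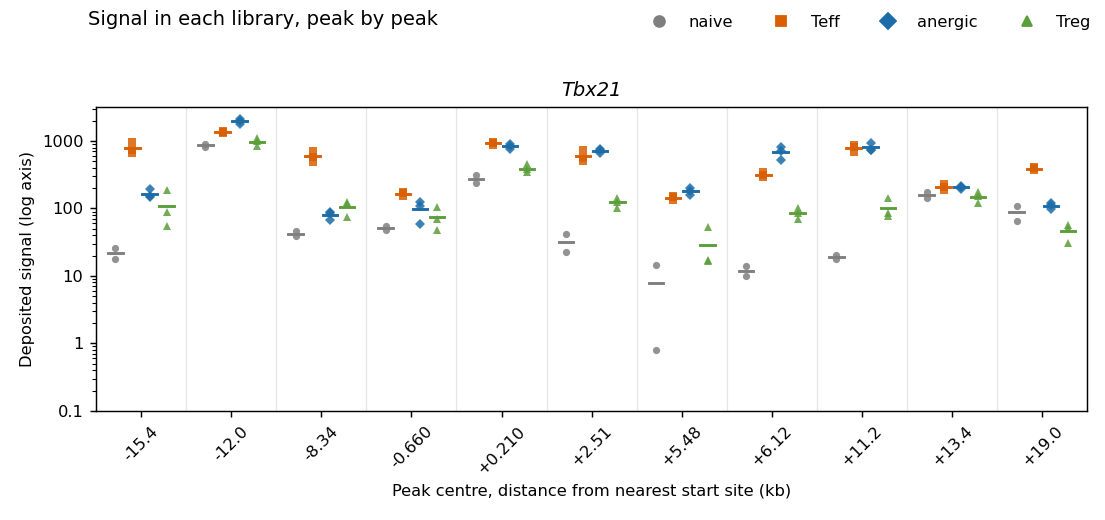
The signal of the 11 Tbx21 peaks is given on a log axis in each library, with peaks along the horizontal axis by distance of their centre from the start site in kb (negative upstream). Points are libraries and short lines are group means. Teff stands above the other groups 15.4 and 8.34 kb upstream and 19 kb downstream, and anergic cells are the highest 12 kb upstream and 6.12 kb downstream.

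Stat4, the factor activated by interleukin-12, had 6 peaks called higher in anergic cells than in Teff and 2 called lower. The higher count was 3 without Teff replicate 2 and 4 without Teff replicate 3 or anergic replicate 3. On the sum, anergic libraries had 6753, 6212 and 6373, Teff 6303, 5219 and 4737, Treg 3929, 3695 and 3664, and naive cells 2549 and 2573. One Teff library overlapped the anergic range. The log2 difference of anergic cells from Teff was 0.26 ± 0.09 (adjusted p = 0.0383), a call lost without Teff replicate 2 (0.24, adjusted p = 0.131) or 3 (0.17, adjusted p = 0.251), without anergic replicate 1 (0.23, adjusted p = 0.117) or 3 (0.27, adjusted p = 0.0739), and with equal total reads (0.23, adjusted p = 0.0557). Both exceeded Treg, which exceeded naive cells by 0.55 ± 0.10 (adjusted p = 1.03e-04).

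The peaks within the long Stat4 gene moved in opposite directions. At 32.4 kb downstream (chr1:52040191-52041048, intron), signals were 841, 594 and 667 in anergic cells, 144, 145 and 175 in Teff, 108, 153 and 122 in Treg, and 20.3 and 54.2 in naive cells. Teff and Treg libraries overlapped, and all anergic libraries lay above them. Between anergic cells and Teff the difference was 2.16 ± 0.27 (adjusted p = 1.77e-06), and anergic over Treg was 2.45 ± 0.27 (adjusted p = 6.15e-07). The neighbouring peak at 31.4 kb had the same order of means, with 516, 441 and 420 in anergic cells and 258, 223 and 200 in Teff (1.01 ± 0.20, adjusted p = 4.10e-04). At 47.8 kb, anergic libraries had 186, 191 and 179 and Teff 53.3, 44.6 and 122 (1.47 ± 0.35, adjusted p = 0.00211), while naive cells had 2.44 and 3.1, or 3 and 4 reads.

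At 27.0 kb (chr1:52034721-52035724), a few kilobases before the peaks that gained, Teff had 1077, 1009 and 807, anergic cells 685, 674 and 620, Treg 125, 181 and 184, and naive cells 45.5 and 51.9. Teff exceeded naive cells by 4.27 ± 0.20 (adjusted p = 5.27e-13), the smallest adjusted p at Stat4 in that comparison, and anergic cells exceeded Treg by 2.03 ± 0.18 (adjusted p = 3.44e-08). The 4 groups did not overlap. Anergic over Teff was -0.54 ± 0.18 (adjusted p = 0.022), a call lost without Teff replicate 1 (-0.45, adjusted p = 0.11) or 2 (-0.50, adjusted p = 0.0898) or anergic replicate 3 (-0.49, adjusted p = 0.0832). At 11.7 kb, Teff had 1089, 888 and 703 against 390, 487 and 422 in anergic cells (-1.03 ± 0.16, adjusted p = 4.15e-05) and 488, 451 and 370 in Treg.

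The Stat4 promoter peak, centred 0.557 kb downstream of a start site, had 1512, 1568 and 1459 in anergic cells, 1292, 1033 and 1078 in Teff, 997, 900 and 962 in Treg, and 570 and 529 in naive cells. Teff over naive was 1.04 ± 0.13 (adjusted p = 1.38e-06), and anergic over naive was 1.46 ± 0.13 (adjusted p = 4.23e-09). Relative to Teff, the anergic log2 change was 0.42 ± 0.12 (adjusted p = 0.00727), a call lost without Teff replicate 2 (0.36, adjusted p = 0.0545). The peak 3.8 kb upstream of this start passed in none of the 6 comparisons. Peaks at 1.39, 2.83 and 4.21 kb were higher in both Teff and anergic cells than in naive ones, of which that of Teff at 2.83 kb (0.52) was lost without Teff replicate 1 (0.38, adjusted p = 0.0594) or naive replicate 1 (0.41, adjusted p = 0.122). In anergic over Teff the peak at 1.39 kb (0.96 ± 0.30, adjusted p = 0.0162) lost its call without Teff replicate 2, Teff replicate 3 or anergic replicate 3 (adjusted p from 0.0636 to 0.0754). That at 2.83 kb (0.37 ± 0.14, adjusted p = 0.0443) lost it in 8 of the alternatives, 5 of them with a library left out (adjusted p from 0.0523 to 0.277 over the 8). In the sum of Stat4, 2 peaks inside the gene are not counted, because each peak was assigned by its nearest start site.

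Ifng, the gene of interferon gamma, differed most between Teff and naive cells at its promoter. The promoter peak (chr10:118440611-118441398, centre 0.042 kb upstream) had 1261, 1107 and 887 in Teff, 542, 429 and 445 in anergic cells, 63.1, 138 and 44.3 in Treg, and 25.2 and 31.7 in naive cells. The 4 groups did not overlap. Teff exceeded naive cells by 5.2 ± 0.31 (adjusted p = 2.17e-11), and anergic cells exceeded naive ones by 4.01 ± 0.31 (adjusted p = 4.57e-10). The log2 difference of anergic cells from Teff was -1.19 ± 0.28 (adjusted p = 0.0019), and Treg over Teff was -3.86 ± 0.28 (adjusted p = 2.03e-09). In the window shown, this peak carries a T-box, a STAT and a RUNX word, all upstream of the start site.

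At 5.49 kb upstream (chr10:118435285-118435825), where the window holds 2 T-box words, anergic cells and Teff did not pass the test of their difference. The signals were 345, 251 and 163 in Teff, 288, 256 and 226 in anergic cells, 30.4, 57.5 and 1.27 in Treg, and 10.6 and 4.65 in naive cells, the last 3 values resting on 1, 13 and 6 reads. Anergic and Teff libraries overlapped, with a difference of 0.08 ± 0.71 (adjusted p = 0.95), whose SE is the largest of the Ifng peaks in that comparison. Anergic over Treg was 4.00 ± 0.71 (adjusted p = 1.66e-04). Treg over naive, 0.99 ± 0.79, did not pass (adjusted p = 0.322), but did without Treg replicate 3 (2.41, adjusted p = 1.10e-04), the library with 1 read.

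At the 3 peaks from 19.3 to 20.6 kb downstream of Ifng, the Teff mean lay below those of anergic cells and Treg. At 20.6 kb downstream (chr10:118461375-118461847), Treg had 463, 575 and 685, anergic cells 405, 467 and 375, Teff 239, 192 and 160, and naive cells 82.1 and 85.9. Between anergic cells and Teff the difference was 1.09 ± 0.19 (adjusted p = 8.79e-05), and Treg over Teff was 1.54 ± 0.19 (adjusted p = 1.76e-06). At 19.3 kb, anergic cells had 202, 324 and 289, Treg 220, 175 and 180, and Teff 56.8, 95.8 and 112. Anergic over Teff was 1.64 ± 0.26 there (adjusted p = 2.99e-05), the smallest adjusted p of the Ifng peaks in that comparison, and Treg over Teff was 1.16 ± 0.26 (adjusted p = 0.00139). The peak between them, at 19.8 kb, had the same direction, but Treg and Teff libraries overlapped, and its call in anergic over Teff (1.5 ± 0.42) was lost without anergic replicate 3 (1.24, adjusted p = 0.0598).

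The remaining Ifng peaks did not pass between anergic cells and Teff, except those 21.9 and 28.1 kb upstream. The large peak 21.9 kb upstream was open in every group, from 1467 in a Treg library to 2534 in a Teff library, and anergic over Teff was -0.47 ± 0.10 (adjusted p = 0.00133). Peaks 1.07 and 28.2 kb downstream were higher than naive in all 3 other groups and did not pass between anergic cells and Teff. At 29.8 kb downstream, Teff had 150, 160 and 108 and anergic cells 189, 185 and 146, against 43.9, 93.7 and 73.4 in Treg and 13 and 10.8 in naive cells. At 28.1 kb upstream, anergic libraries (131, 205 and 112) lay above the others, though the difference from Teff, 1.08 ± 0.30, was lost without anergic replicate 2 (0.83, adjusted p = 0.0644). Its anergic over Treg call was lost with equal total reads (0.66, adjusted p = 0.103). That call was also lost without Teff replicate 1, Treg replicate 1 or 3, or anergic replicate 1 or 2 (adjusted p from 0.0506 to 0.242). The peak 70.4 kb upstream passed in none of the 6 comparisons. Over all 11 peaks, Ifng sums were 5142, 4721 and 4225 in Teff and 3979, 4330 and 4056 in anergic cells, a difference that did not pass (-0.18 ± 0.09, adjusted p = 0.132). It passed with equal total reads (-0.21, adjusted p = 0.0383) and without Teff replicate 3 (-0.26, adjusted p = 0.0493).

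**Figure D4:**
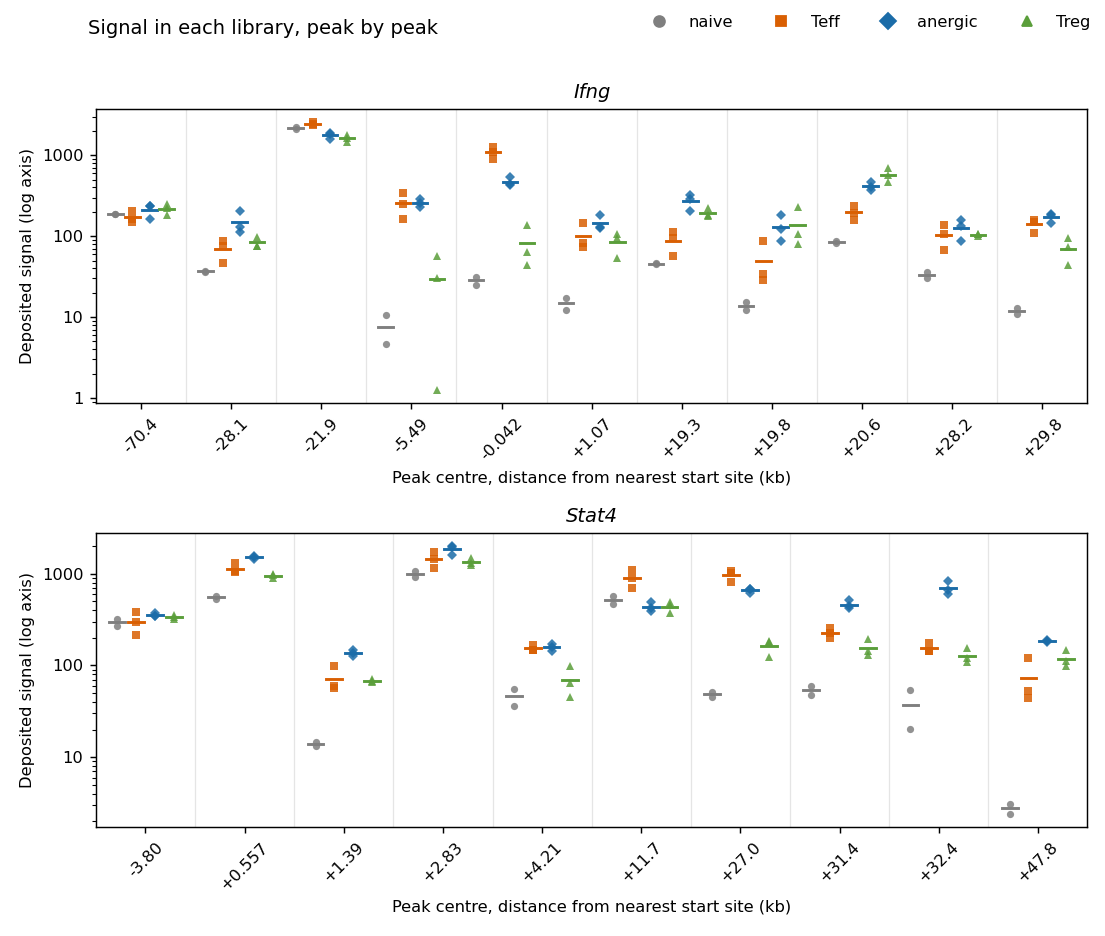
Signal on a log axis is given for each peak of Ifng (top) and Stat4 (bottom) in each library, with peaks placed by distance of their centre from the nearest start site in kb. Points are libraries and short lines are group means. At the Ifng start Teff is highest. At 20.6 kb downstream of it the Treg mean is highest, though Treg and anergic libraries overlap. At 32.4 kb downstream of the Stat4 start the 3 anergic libraries (594 to 841) stand above all others.

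Il12rb2, the inducible chain of the interleukin-12 receptor, was lower in anergic cells than in Teff at 5 of its 6 peaks, and lower in Treg than in Teff at 5. Against naive cells 5 were lower in anergic cells, of which 4 were lost without naive replicate 1 (-0.54 to -1.30, adjusted p from 0.0651 to 0.24) and 2 without anergic replicate 3 or naive replicate 2. The sum was 2109, 1875 and 1287 in Teff, 645, 771 and 526 in anergic cells, 443, 458 and 349 in Treg, and 1024 and 890 in naive cells. Teff libraries stood above all others, and anergic and Treg libraries below the naive ones. Relative to Teff, the anergic log2 change was -1.43 ± 0.16 (adjusted p = 1.41e-07) and Treg over Teff was -2.05 ± 0.16 (adjusted p = 4.48e-10). Anergic over naive was -0.58 ± 0.18 (adjusted p = 0.0117), lost without anergic replicate 3 (-0.44, adjusted p = 0.0668) or naive replicate 1 (-0.48, adjusted p = 0.125).

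The peak on the Il12rb2 start site (chr6:67375979-67376393, 0.002 kb downstream) had 461, 430 and 325 in Teff, 108, 66.4 and 56.4 in anergic cells, 124, 136 and 101 in Treg, and 129 and 108 in naive cells. The log2 difference of anergic cells from Teff was -2.42 ± 0.24 (adjusted p = 1.16e-07), and the difference of Treg from naive cells, 0.02 ± 0.27, did not pass (adjusted p = 0.961). Here anergic and Treg libraries overlapped. At 23.6 kb upstream (chr6:67399552-67400005), Teff had 568, 502 and 337, anergic cells 230, 254 and 174, naive cells 115 and 125, and Treg 42.8, 27.7 and 34.2. Treg stood below naive cells at this peak (-1.77 ± 0.27, adjusted p = 1.30e-05), and the groups did not overlap. Teff exceeded naive cells there by 1.92 ± 0.27 (adjusted p = 5.08e-06), the smallest adjusted p at Il12rb2 in that comparison. A second, intragenic start site (0.049 kb from its peak) did not pass in Teff over naive (-0.20 ± 0.41, adjusted p = 0.735), with 91.4, 71 and 65 in Teff and 109 and 68.1 in naive cells. Its anergic libraries had 38.1, 22.7 and 22.8, below Teff by 1.44 on the log2 scale (-1.44 ± 0.37, adjusted p = 0.00398). Of the intron peaks, those 8.53 kb upstream and 21.7 kb downstream of this second start were lower in anergic cells (-1.54 and -1.16), and that at 21 kb was not called.

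Il12rb1, the constitutive chain of the same receptor, varied less. Its promoter peak (centre 0.048 kb upstream) had 208, 200 and 162 in Teff, 229, 170 and 116 in anergic cells, 167, 236 and 241 in Treg, and 130 and 96.8 in naive cells. Anergic and Teff libraries overlapped (-0.19 ± 0.24, adjusted p = 0.598). Teff over naive, 0.74 ± 0.27 (adjusted p = 0.0313), was lost without Teff replicate 1 or 2 or naive replicate 2 (0.53 to 0.70, adjusted p from 0.081 to 0.242). The peak 1.68 kb upstream was highest in Teff, with 454, 430 and 363 in Teff against 211, 259 and 205 in anergic cells and 206, 166 and 161 in Treg. Between anergic cells and Teff the difference was -0.89 ± 0.18 (adjusted p = 5.32e-04), and Teff over naive was 1.52 ± 0.20 (adjusted p = 2.88e-06), the smallest adjusted p of the Il12rb1 peaks in both comparisons. The peaks 3.79 kb upstream and 13.3 kb downstream passed in none of the 6 comparisons.

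Il18r1, the ligand-binding chain of the interleukin-18 receptor, was higher in Teff than in anergic cells at 3 of its 5 peaks. Its sums were 2154, 1905 and 1827 in Teff, 1139, 1521 and 1283 in anergic cells, 1314, 1213 and 1203 in Treg, and 1643 and 1236 in naive cells. Anergic, Treg and naive libraries overlapped, and Teff lay above them. Anergic over Teff was -0.58 ± 0.12 (adjusted p = 4.38e-04). The intron peak 9.84 kb downstream had 795, 752 and 697 in Teff and 302, 493 and 403 in anergic cells (-0.93 ± 0.17, adjusted p = 1.93e-04). At the promoter peak (0.081 kb downstream), Teff had 332, 310 and 253 and anergic cells 166, 220 and 179, a difference of -0.66 ± 0.19 (adjusted p = 0.0104) that was lost without Teff replicate 1 (-0.58, adjusted p = 0.0541). The largest gain over naive cells was 13.7 kb downstream, with 486, 349 and 353 in Teff against 183 and 143 (1.27 ± 0.19, adjusted p = 1.51e-05).

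Il18rap, the signalling chain of that receptor, had a single peak, 13.6 kb upstream (chr1:40501583-40501849). This peak lies just beyond the end of Il18r1 (chr1 position 40500854), and no peak lay within 1000 bases of the Il18rap start site. Teff libraries had 199, 164 and 225, anergic ones 16.6, 26.4 and 22.8, Treg 18, 14.9 and 7.6, and naive 0.812 and 6.97, or 1 and 9 reads. No library outside Teff exceeded 26.4. Relative to Teff, the anergic log2 change was -3.12 ± 0.55 (adjusted p = 1.15e-04) and Treg over Teff was -3.83 ± 0.55 (adjusted p = 1.43e-05). Teff over naive was 5.69 ± 0.61 (adjusted p = 1.61e-07), whose size depends on the few naive reads and the added 1. The calls of anergic and Treg cells over naive ones were lost without naive replicate 1 (1.5, adjusted p = 0.0592, and 0.79, adjusted p = 0.362), and that of Treg also without Treg replicate 1 (1.62, adjusted p = 0.0593).

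Cxcr3, the chemokine receptor gene, was graded across the subsets. At 3.30 kb upstream (chrX:101737218-101737675), Teff had 623, 536 and 437, anergic cells 264, 269 and 237, Treg 75.5, 68.1 and 45.6, and naive cells 9.75 and 15.5. The 4 groups did not overlap. The log2 difference of anergic cells from Teff was -1.04 ± 0.25 (adjusted p = 0.0022), anergic over Treg was 2.04 ± 0.25 (adjusted p = 2.19e-06), and Treg over naive was 2.24 ± 0.28 (adjusted p = 9.44e-07). Teff over naive was 5.31 ± 0.28 (adjusted p = 2.79e-12). At the promoter peak (0.049 kb downstream) Teff had 333, 411 and 272, anergic cells 202, 128 and 159, Treg 46.2, 104 and 60.8, and naive cells 37.4 and 17.8. Its anergic over Teff difference, -1.05 ± 0.31 (adjusted p = 0.0107), was lost without Teff replicate 2 (-0.90, adjusted p = 0.0703) or anergic replicate 2 (-0.89, adjusted p = 0.0542). Teff over naive was 3.64 ± 0.35 at that peak (adjusted p = 2.40e-08). The narrow peak 1.05 kb upstream had 82.4, 93.3 and 66.7 in Teff and 63, 72.2 and 51.7 in anergic cells, which overlapped.

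Eomes was the 1 Th1 gene whose sum was lower in Teff than in naive cells, and like Il12rb2 it was also lower in anergic than in naive cells. The promoter peak (0.957 kb downstream, coding exon) had 118, 146 and 150 in Teff, 197, 123 and 157 in anergic cells, 264, 307 and 276 in Treg, and 270 and 367 in naive cells. Teff over naive was -1.19 ± 0.23 (adjusted p = 2.36e-04), anergic over naive was -1.01 ± 0.23 (adjusted p = 7.96e-04), and Treg over Teff was 1.03 ± 0.20 (adjusted p = 5.07e-04). Treg and naive libraries overlapped (-0.16 ± 0.23, adjusted p = 0.60). At 11.5 kb downstream, naive cells had 547 and 541 against 344, 411 and 440 in Teff (-0.46 ± 0.17, adjusted p = 0.0423). That call was lost with equal total reads (-0.39, adjusted p = 0.0911) and without any one of Teff replicates 1 and 2, Treg replicate 3 and naive replicates 1 and 2 (adjusted p from 0.0505 to 0.16).

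Hopx was the gene whose sum was highest in Treg. Sums were 6409, 5892 and 6695 in Treg, 5147, 4787 and 4214 in Teff, 4220, 4373 and 3803 in anergic cells, and 1877 and 2104 in naive cells. Treg libraries stood above all others, by 0.43 ± 0.09 over Teff (adjusted p = 7.40e-04), and anergic and Teff libraries overlapped (-0.19 ± 0.09, adjusted p = 0.145). All 9 peaks were higher in Treg than in naive cells, although the peak 29.8 kb upstream (0.41 ± 0.16) no longer passed without either of Teff replicates 1 and 2, either of Treg replicates 2 and 3, or naive replicate 1 (adjusted p from 0.0513 to 0.361).

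The 2 start sites of Hopx differed in which cells opened them. RefSeq places one at chr5 position 77115123 (the upstream one) and another at 77095267, inside the longer transcript. At the upstream start (chr5:77114771-77115191), Treg had 501, 492 and 613, anergic cells 335, 229 and 238, Teff 19.4, 40.5 and 90, and naive cells 17.9 and 6.19. Between anergic cells and Teff the difference was 2.64 ± 0.39 (adjusted p = 1.86e-05) and Treg over Teff was 3.65 ± 0.39 (adjusted p = 4.14e-07). Teff was also called higher than naive cells there, though this call depended on naive replicate 2 (log2 difference 1.17 without it). At the inner start (chr5:77094689-77095433), signals were 600, 635 and 568 in Teff, 521, 694 and 605 in anergic cells, 887, 732 and 838 in Treg, and 403 and 411 in naive cells. Anergic and Teff libraries overlapped there, with a difference of 0.00 ± 0.14 (adjusted p = 0.987). The difference between the 2 start sites was not tested as such.

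Distal Hopx peaks also split by subset. At 15.4 kb upstream of the outer start (chr5:77130143-77130925), Treg had 1873, 1684 and 1925, anergic cells 1104, 1346 and 1173, Teff 671, 610 and 510, and naive cells 65.8 and 44.9. The 4 groups did not overlap, and Treg over naive, 5.04 ± 0.17 (adjusted p = 3.54e-15), had the smallest adjusted p of any Hopx peak in that comparison. Teff over naive was 3.42 ± 0.17 there (adjusted p = 1.50e-12). At 29.8 kb upstream, Teff was highest, with 1353, 1324 and 1115, and anergic cells lowest, with 418, 430 and 390 (-1.61 ± 0.15, adjusted p = 2.96e-08). In an intron 3.37 kb beyond the inner start (chr5:77091625-77092172), Teff had 629, 591 and 377, anergic cells 242, 164 and 159, Treg 91.2, 160 and 98.8, and naive cells 7.31 and 12.4. Anergic over Teff was -1.49 ± 0.28 (adjusted p = 2.11e-04). This Teff-high peak holds a T-box word, and the Treg-high peak 15.4 kb upstream holds none of the 5 words. The Teff-high peak 29.8 kb upstream holds STAT and RUNX words but no T-box word. The same is true of the peak 10.2 kb upstream, whose mean was highest in Treg.

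**Figure D5:**
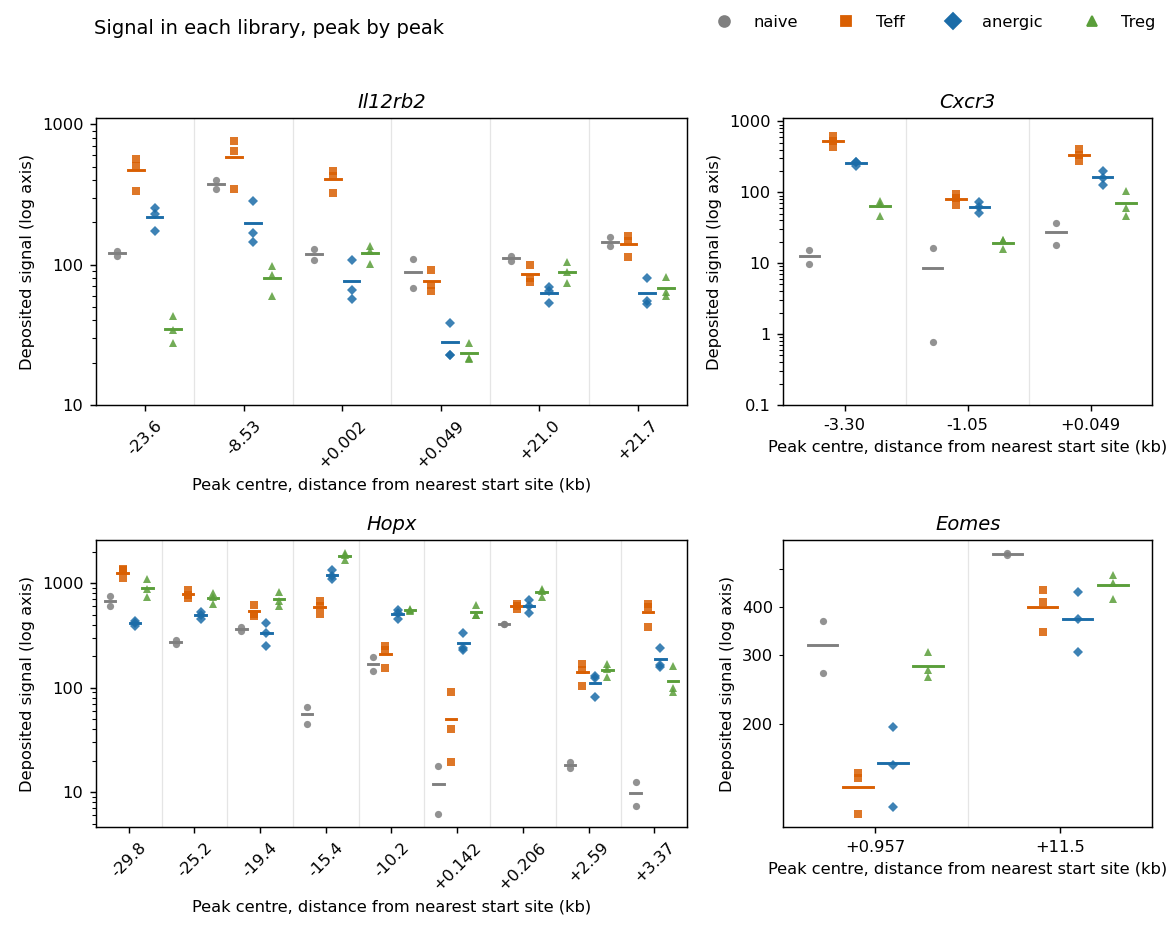
Signal on a log axis is given for each peak of Il12rb2, Cxcr3, Hopx and Eomes in each library, with peaks placed by distance of their centre from the nearest start site in kb. Points are libraries and short lines are group means. At the outer Hopx start (0.142 kb downstream) Treg and anergic libraries lie above Teff, and 3.37 kb beyond the inner start all 3 Teff libraries (377 to 629) lie above the rest.

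Across the 11 libraries, the sums of Tbx21, Ifng, Stat4 and Cxcr3 were correlated, with Pearson's r between 0.89 and 0.96 on the log2 scale for each pair. Il12rb2 went most closely with Il18r1 (r = 0.89), Hopx had r of at most 0.48 with any other of the genes, and Eomes was negative with all of them. These are descriptions over libraries that fall into 4 groups, and all sums of a library share its depth. Among 4552 genes with at least 3 peaks, those most like Tbx21 were Iqgap1 (r = 0.985), 2310043O21Rik (r = 0.982), Nebl (r = 0.982), Tns2 (r = 0.978) and Slc38a1 (r = 0.978). Among those most like Ifng were Sycp3 (r = 0.980), Rab8b (r = 0.980), Ankdd1a (r = 0.974) and Il4 (r = 0.974). Il4, the cytokine of the T helper 2 fate, had a mean summed signal of 1002 in Teff, 495 in anergic cells, 165 in Treg and 46.8 in naive cells, so its order of groups is the same as that of the Ifng promoter.

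A list of 24 further genes of Th1 signalling and function gave 151 peaks in 23 genes, with none for Twist1. In anergic over Teff, 23 of these peaks were higher and 60 lower (15.2% and 39.7%, against 15.9% and 16.8% of all peaks), with a median log2 fold change of -0.27 against 0.00. The higher share was thus near that of all peaks. In Teff over naive 66 were higher and 16 lower (43.7% and 10.6%, against 22.7% and 17.4%). In Treg over Teff 17 were higher and 45 lower (11.3% and 29.8%, against 14.4% and 18.2%). In anergic over naive the counts were 54 and 48 (35.8% and 31.8%, against 25.3% and 25.1%), and in Treg over naive 53 and 29 (35.1% and 19.2%, against 22.3% and 23%). In anergic over Treg they were 29 and 40 (19.2% and 26.5%, against 19.4% and 14.8%). Of the 5 genes with the smallest adjusted p in anergic over Teff, 4 are named here. Jak2, the kinase that works at Il12rb2, was the one of these that was higher in anergic cells. Its peak 19.5 kb downstream had 2481 ± 169 in anergic cells and 757 ± 128 in Teff (1.72 ± 0.14, adjusted p = 6.20e-09), and 8 of its 13 peaks were higher. Peaks of Jak1 (-2.35 ± 0.24, adjusted p = 1.24e-07), of Il2rb, an interleukin-2 receptor chain (-2.13 ± 0.22, adjusted p = 1.72e-07), and of Irf1, a factor induced by interferon (-2.21 ± 0.23, adjusted p = 1.87e-07), were lower.

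Of the markers of innate-like T cells, Zbtb16 and Xcl1 moved with the Teff-high peaks and Klrb1b did not. Zbtb16, the factor of natural killer T cells, had a sum over 13 peaks of 6198 ± 1054 in Teff, 1018 ± 152 in anergic cells, 566 ± 171 in Treg and 445 ± 71.8 in naive cells. Xcl1 had 451 ± 172 in Teff and a mean of at most 64.9 elsewhere. The group means of Klrb1b ran from 8621 in naive to 9862 in anergic cells, with 8720 in Teff, and Tcrg-C1 had no peak. Summed over the 3 genes with peaks, this list ran from 14491 to 16484 in Teff, 10252 to 12198 in anergic cells, 8338 to 10519 in Treg and 9030 to 9128 in naive cells. Its part in the Teff-high signal at Tbx21, Ifng, Il18rap, Il12rb2 and Cxcr3 was not tested. Of the other lists, the single Cd8b1 peak was 199 ± 24.9 in Teff and 197 ± 85.4 in anergic cells, below 1133 ± 23 in naive cells. The natural killer list, whose signal came from Klrb1c, summed to 19306 to 21161 in Teff and 19290 to 24865 in anergic cells, which overlapped. Its Teff libraries lay below the naive ones (21468 to 21982). Of its 11 peaks, 4 were higher and 0 lower in Teff over naive (all peaks 22.7% and 17.4%). In anergic over Teff, 1 was higher and 4 lower (all peaks 15.9% and 16.8%). In Treg over Teff, 0 were higher and 6 lower (all peaks 14.4% and 18.2%). The part of these peaks in the Teff-high signal was not tested. The B cell list summed to 377 to 515 in Teff and 368 to 466 in anergic cells, and the myeloid list to 1354 to 1650 and 2942 to 3097, the latter through Cebpa at 2360 ± 97.4.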

How the data were processed

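ATAC-seq reads were trimmed with Trimmomatic 0.38.1, aligned to mm10 with Bowtie2 2.3.3.1 and called per sample with Genrich 0.5, which removed PCR duplicates and adjusted for transposase cut sites, per the labels' design text. DiffBind 2.10.0 made the consensus peaks. The deposited signal per peak and library is a whole number of reads times 1 factor per library: dividing by the smallest value gave whole reads, within 0.01, for 100% of values. How the authors chose the factors is not given in the sources used here.

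Peak starts, counted from 0 in the table, were raised by 1. Peaks were assigned to 45756 RefSeq GRCm38 transcripts by the nearest start site. The main test was limma 3.58.1 (trend) on log2(signal + 1), with 1 mean per group over all 11 libraries (R 4.3.3). Of the peaks, 16 failed a filter on low values and 38493 were tested. All 65 Th1 peaks passed it. Fold changes are on that scale and understate the change of weak peaks. P-values were Benjamini-Hochberg adjusted over all tested peaks (threshold 0.05) and, for sums over a gene's peaks, over 14241 genes. The script was tested on simulated data. Alternatives were edgeR 4.0.16 (quasi-likelihood, TMM) and DESeq2 1.42.0 on recovered reads, equal total reads, a pseudocount of 5, no filter, only the 2 groups compared, a replicate block, each library left out, and other peak-to-gene rules. edgeR called 49, 54, 45, 39, 42 and 34 of the 65 peaks, and limma 49, 53, 44, 40, 44 and 33, in the order of Teff, anergic and Treg over naive, anergic and Treg over Teff, and anergic over Treg. The block on the gene sums was added after seeing the data.

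For each gene the promoter peak (within 1000 bases) and the peaks with the smallest adjusted p in anergic over Teff and in Teff over naive are given in full. Of the 5 related genes with the smallest adjusted p in anergic over Teff, 4 are named. A few results that the rules would name are not reported here. The genes, lists and rules were chosen with earlier results of these data known.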

Additional observations from a re-analysis of the deposited data

How the results depend on the processing

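No call of a Th1 peak changed direction. Over the 65 peaks and 6 comparisons, 2661 of 2730 values under alternatives other than leaving out a library stayed on the same side of the threshold, 31 lost it and 38 gained it. With each library left out in turn, 4111 of 4290 stayed, 147 lost the call and 32 gained it. Counting start sites of NM transcripts only added 11 peaks and raised the lower counts to 10 in Teff over naive, 22 in anergic over naive, 12 in Treg over naive and 14 in anergic over Treg. The lower count in Teff over naive was 1 with equal total reads and 1 to 2 with a library left out. The lower count in anergic over naive ran from 4 to 12 with a library left out, the lowest without naive replicate 1, which leaves naive as a lone library assumed to vary like the other groups. The cause was not tested. The remaining counts over all Th1 peaks in the 6 comparisons stayed within 1.5 times their main value. Counts for single genes and for the group that stood apart moved more in places, as given above.

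Residuals of libraries with the same replicate number correlated from -0.11 to 0.16 (mean 0.04, 15 pairs), against -0.22 to 0.19 (mean -0.02, 30 pairs) for other numbers. With so few libraries per group, the residuals within a group are tied to each other. These correlations therefore cannot decide whether libraries of the same number were prepared together. With a replicate block, called Th1 peaks numbered 50, 53, 45, 40, 44 and 37, against 49, 53, 44, 40, 44 and 33, in Teff, anergic and Treg over naive, anergic and Treg over Teff, and anergic over Treg. Not every library correlated best with its own number. Reads limit the weakest peaks: at Il18rap and at 47.8 kb in Stat4 both naive libraries hold fewer than 10 reads.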

Other observations

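Around 4 of the Th1 genes, 11 peaks lie nearest to the start of a noncoding or microRNA gene and were therefore not counted with the 65, and most of them were highest in naive cells. Of the 11, 8 were lower in Teff than in naive cells, 10 in anergic cells and 5 in Treg, and 1 was higher in each, where 17.4%, 25.1% and 23% of all peaks were lower. Of the 5 that lie beyond Ifng, 4 are nearest to Ifngas1, a long noncoding RNA gene, and 1 to Gm33337. All 5 were lower in anergic than in naive cells. The widest of them, 193 kb from the Ifng start (chr10:118633387-118633997), had 2723 and 1847 in naive cells, 1110, 885 and 832 in Teff, 428, 753 and 441 in anergic cells, and 816, 590 and 722 in Treg. Anergic over naive was -2.10 ± 0.21 (adjusted p = 2.88e-08).

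At 158 kb from Ifng (chr10:118599180-118599577), anergic cells stood below every other group. Naive libraries had 415 and 310, Teff 591, 459 and 382, Treg 327, 215 and 328, and anergic cells 121, 100 and 66.5. Anergic over Teff was -2.32 ± 0.23 (adjusted p = 9.95e-08), and Teff over naive was 0.39 ± 0.26 (adjusted p = 0.244). The 4 peaks near Eomes, nearest to 4933432G23Rik, were all lower in Teff and in anergic cells than in naive cells. The strongest, 87.3 kb from Eomes (chr9:118390754-118391083), had 324 and 289 in naive cells, 109, 170 and 170 in Treg, 58.2, 39.6 and 55 in Teff, and 38.1, 31.1 and 24.9 in anergic cells. Anergic over naive was -3.27 ± 0.31 (adjusted p = 1.22e-08). These peaks were chosen after their values were seen.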
